A study of Mus musculus with 3 samples.

Results

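The 6 genes described here are Lepr, which encodes the leptin receptor, and 5 genes for transcriptional regulators of marrow reticular stroma: Ebf1, Ebf3, Foxc1, Snai2 and Cbfa2t3. They were chosen by name, with earlier results of these data known, and all 6 were present among the 27998 genes of the count matrices. Niche cells of the bone marrow of CB6F1 mice were profiled by droplet single-cell RNA sequencing, with 1 library per group. WT mice were untreated females. BMT mice were female recipients irradiated at 4 Gy on 2 occasions and injected 4 hours later with bone marrow nucleated cells of CD45.1+ B6.SJL mice. The aGVHD mice received the same irradiation and marrow and, in addition, spleen cells of female C57BL/6 mice, the source of acute graft-versus-host disease. In all 3 groups the sort removed cells carrying CD45, the lineage markers or CD71 and used Calcein AM and DAPI to remove dead cells. The labels give neither the age of the mice nor how many were pooled nor the day of collection. BMT against WT therefore compares irradiation and marrow transfer together with no treatment, and aGVHD against BMT compares the addition of spleen cells.

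Leptin receptor is a cytokine receptor that signals through Jak2 and Stat proteins, and in adult marrow it is the classical surface marker of perivascular reticular cells, which make the chemokine Cxcl12 and stem cell factor. Ebf1 and Ebf3 are paralogous early B cell factors. Ebf3 and Foxc1 are known to keep reticular cells in their niche state, and Ebf3 also to keep the marrow space free of bone. Ebf1 is better known as a determinant of B lymphocyte fate. Snai2 (Slug) is a zinc finger repressor of mesenchymal cells that binds E-box sequences. Cbfa2t3 (Eto2) is a corepressor without DNA binding of its own, best known in blood cell complexes with Tal1 and Gata factors.

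In the GENCODE annotation of GRCm38, the build named mm10 in the submitters' processing notes, Lepr (ENSMUSG00000057722) lies on chromosome 4 at 101717404 to 101815352, plus strand. Ebf1 (ENSMUSG00000057098) lies on chromosome 11 at 44617317 to 45008091, plus strand, and Ebf3 (ENSMUSG00000010476) on chromosome 7 at 137193673 to 137314445, minus strand. Foxc1 (ENSMUSG00000050295) lies on chromosome 13 at 31806633 to 31812476, plus strand, Snai2 (ENSMUSG00000022676) on chromosome 16 at 14705852 to 14709385, plus strand, and Cbfa2t3 (ENSMUSG00000006362) on chromosome 8 at 122625141 to 122699109, minus strand. All 6 are protein-coding. Of the other genes in the matrices, 1 overlapped Ebf1 (Gm12158) and 2 overlapped Cbfa2t3 (Gm10612 and Gm20388), each on the opposite strand. Whether the counting used strand is not given in the sources used here. Any part of those partners in the counts of Ebf1 and Cbfa2t3 was not tested.

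RefSeq promoter windows of GRCm38.p6, each of 300 bases, matched 5 of the 6 genes with 8 windows, and Snai2 had none. They were searched on both strands for the letters of 5 motifs. The first 2 were TCCC and GGGA 2 bases apart for EBF factors and CAGGTG for SNAI proteins. The others were GTAAACA for forkhead factors, TGTGGT for RUNX factors and TTCNNNGAA for Stat proteins. In this order the 5 motifs are held by 0.904%, 20.2%, 3.65%, 16.8% and 8.30% of the 32851 windows of the table. The promoters of Lepr, the gene the reticular cells are named for, and of Foxc1 are shown as 2 of the 4 genes with a match, and the outermost promoter of Cbfa2t3 because this gene had the largest difference between BMT and WT in reticular cells among the 6. Capitals mark the matches. The stretches stop before the first annotated base of the gene, at chr4:101717157-101717403 (plus strand), chr13:31806396-31806632 (plus strand) and chr8:122699110-122699359 (minus strand).
Lepr: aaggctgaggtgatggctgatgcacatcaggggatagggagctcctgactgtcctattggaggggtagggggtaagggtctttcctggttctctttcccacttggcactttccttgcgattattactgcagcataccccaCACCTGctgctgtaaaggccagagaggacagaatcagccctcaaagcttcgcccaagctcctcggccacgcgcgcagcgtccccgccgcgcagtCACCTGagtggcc
Foxc1: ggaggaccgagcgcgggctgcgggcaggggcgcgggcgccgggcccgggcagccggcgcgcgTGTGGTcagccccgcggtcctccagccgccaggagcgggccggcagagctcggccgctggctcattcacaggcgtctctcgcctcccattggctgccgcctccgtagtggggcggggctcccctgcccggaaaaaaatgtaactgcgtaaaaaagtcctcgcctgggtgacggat
Cbfa2t3: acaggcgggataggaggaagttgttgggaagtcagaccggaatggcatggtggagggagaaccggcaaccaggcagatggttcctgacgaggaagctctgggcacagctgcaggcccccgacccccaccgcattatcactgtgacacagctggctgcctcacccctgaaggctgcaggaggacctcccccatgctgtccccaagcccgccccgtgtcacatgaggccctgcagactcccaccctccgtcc
The Lepr stretch holds 2 matches to the SNAI letters, read on the opposite strand, and the Foxc1 stretch holds 1 match to the RUNX letters. The Cbfa2t3 stretch holds none of the 5 motifs, but the other Cbfa2t3 window, not shown, holds 1 match to the SNAI letters, 64 bases before its start. Of the 2 Ebf1 windows, not shown, 1 holds a match to the RUNX letters, 12 bases before its start. None of the 8 windows holds the EBF, forkhead or Stat letters. These are matches of letters, with no binding measured here.

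The libraries held 86575425 (WT), 44219063 (BMT) and 67439098 (aGVHD) unique molecular identifiers (UMIs), and 6722, 3516 and 5320 cells remained after cell calling and removal of likely doublets, at a median of 7122, 6706.5 and 6800 UMIs per cell. Pairs of libraries shared between 5 and 11 cell barcodes. Each cell was placed in 1 of 16 classes by 8 marker genes per class, none of which is among the 6 genes described. Cells of haematopoietic classes were present in every library despite the sort. The LepR stromal-like class, gated on Cxcl12, Adipoq, Kitl, Gas6, Agt, Esm1, Kng1 and Kng2, held 957 WT, 560 BMT and 392 aGVHD cells, which is 14.2%, 15.9% and 7.37% of cells. Its cells carried a median of 8 of the 8 markers in each library and at most 1 marker of any other class, and 3 to 5 cells per library sat at the minimum of 3 markers. Lepr, which was not used to gate, was among the 10 leading genes of the class in WT and BMT and not in aGVHD. The class differed in depth between libraries, with a median of 5720 UMIs in a WT cell, 14533.5 in a BMT cell and 12108.5 in an aGVHD cell. Levels are counts per 1000000 UMIs (CPM), the gene's UMIs summed over a class and divided by all UMIs of that class, and every interval is an exact 95% interval that covers counting error only. No replicate check exists for a single library, so all differences describe these 3 libraries. The background of free RNA was read from empty droplets, barcodes of at most 100 UMIs. Haemoglobin and neutrophil genes put free RNA at 0.559%, 0.404% and 0.552% of a median LepR stromal-like cell's UMIs (WT, BMT, aGVHD). The empty-droplet level is thus not the amount of free RNA expected in a cell.

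Of the 6 genes, Lepr was the most restricted to the LepR stromal-like class. That class held 85.6% of the Lepr UMIs found in cells in WT, 90.1% in BMT and 90.8% in aGVHD, while holding 9.06%, 21.9% and 9.75% of all UMIs in cells. Its level there was 1747 CPM in WT (interval 1713 to 1782), 1189 CPM in BMT (1165 to 1213) and 529.6 CPM in aGVHD (509.3 to 550.5), which is 16.1, 7.82 and 12.4 times the level in that library's empty droplets. The 3 intervals did not overlap, and the level was lower at each step from WT to BMT to aGVHD. Lepr was 1.47-fold lower in BMT than in WT (ratio 0.680, interval 0.662 to 0.700) and 2.24-fold lower in aGVHD than in BMT (ratio 0.445, 0.426 to 0.465). On the log2 scale the median of all genes with at least 50 summed UMIs was 0.12 for BMT over WT and -0.13 for aGVHD over BMT in this class, against -0.56 and -1.17 for Lepr.

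**Figure D1:**
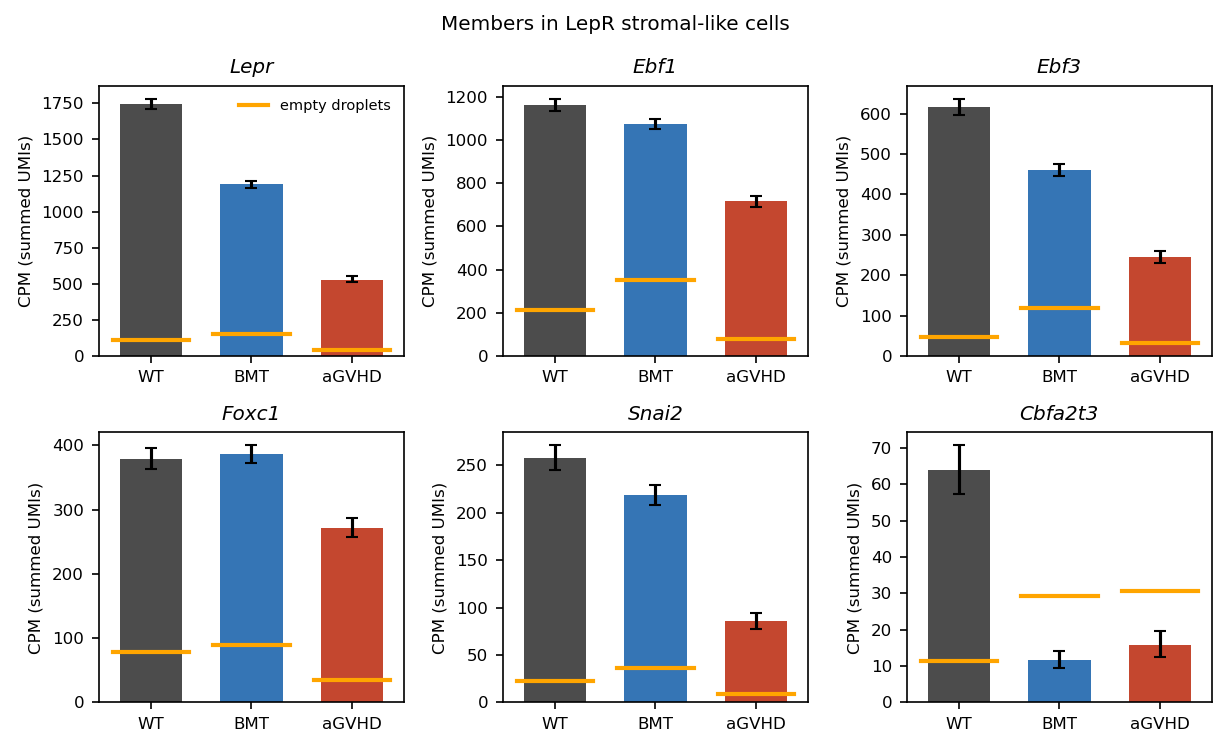
Level of each gene in LepR stromal-like cells (vertical axis, CPM of summed UMIs) in the WT, BMT and aGVHD libraries; bars start at 0, error bars are exact Poisson 95% intervals (counting error only) and orange lines give the level in that library's empty droplets. Lepr, Ebf1, Ebf3 and Snai2 step down from WT to BMT to aGVHD, Ebf1 by only 1.08-fold from WT to BMT. Foxc1 is level between WT and BMT, and Cbfa2t3 lies above the empty droplets in WT alone.

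A gene was called different where the levels were at least 1.5-fold apart, the interval of the ratio excluded 1, at least 50 UMIs were summed over both libraries, and the higher side was at least 2 times its own empty droplets. Between BMT and WT 1 of the 6 genes was called, Cbfa2t3, which was lower; of all 2918 genes that could be tested in the class, 8.09% were called lower and 20.6% higher. Between aGVHD and BMT 4 of the 6 were called, all lower (Lepr, Ebf1, Ebf3 and Snai2), and Cbfa2t3 could not be tested. Of the 3106 genes that could be tested, 25.6% were called lower and 10.2% higher. Snai2 had the lowest ratio of the 4 called members, with an interval that overlapped that of Lepr, and Ebf1 the highest.

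The size of the Lepr difference between BMT and WT depended on depth and on the cells compared. In cells of 5000 to 15000 UMIs, a range chosen after seeing the data, Lepr stood at 1734 CPM in 613 WT cells, 1455 CPM in 204 BMT cells and 735.9 CPM in 219 aGVHD cells. There the BMT level was 1.19-fold lower than WT and the aGVHD level 1.98-fold lower than BMT. Depth still differed within this range, with medians of 6576, 11031.5 and 10373 UMIs. Counted per cell rather than as a share of UMIs, Lepr did not fall from WT to BMT: the median cell held 9 Lepr UMIs in WT (quartiles 6 and 14), 14 in BMT (5 and 25) and 5 in aGVHD (1 and 9). The share of each cell's UMIs was thus lower in BMT and the number of UMIs higher, in deeper cells; which of them tracks Lepr transcripts per cell was not tested.

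Within each library the Lepr level varied with depth. With the LepR stromal-like cells of each library split into 5 groups by depth, the deepest group had the lowest level in every library: 1442 CPM in WT, 923.5 in BMT and 301.2 in aGVHD, against 1957, 1119 and 641.9 CPM in the shallowest group. In WT the deepest group also held 19177 CPM of Hbb-bs, a haemoglobin gene of red cells, against 600.3 CPM in the group before it and 4471.9 CPM in the shallowest group, and in aGVHD the 3 deepest groups held 4438 to 6638 CPM. In BMT, Hbb-bs stayed between 74.5 and 239.2 CPM. Spp1, the osteopontin gene, was also highest in the deepest group of WT (1889 CPM, against 171.5 in the group before it) and of aGVHD (4425 against 1164 CPM), and lowest there in BMT (101.7 CPM). The part of Spp1 in these Lepr levels was not tested. Without the cells of at least 2% haemoglobin UMIs, which left 944 WT, 560 BMT and 384 aGVHD cells, Lepr was 1.49-fold lower in BMT than in WT and 2.26-fold lower in aGVHD than in BMT. Without the deepest group the values were 1.42-fold and 2.02-fold. Both ways of leaving cells out were chosen after seeing the data.

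**Figure D2:**
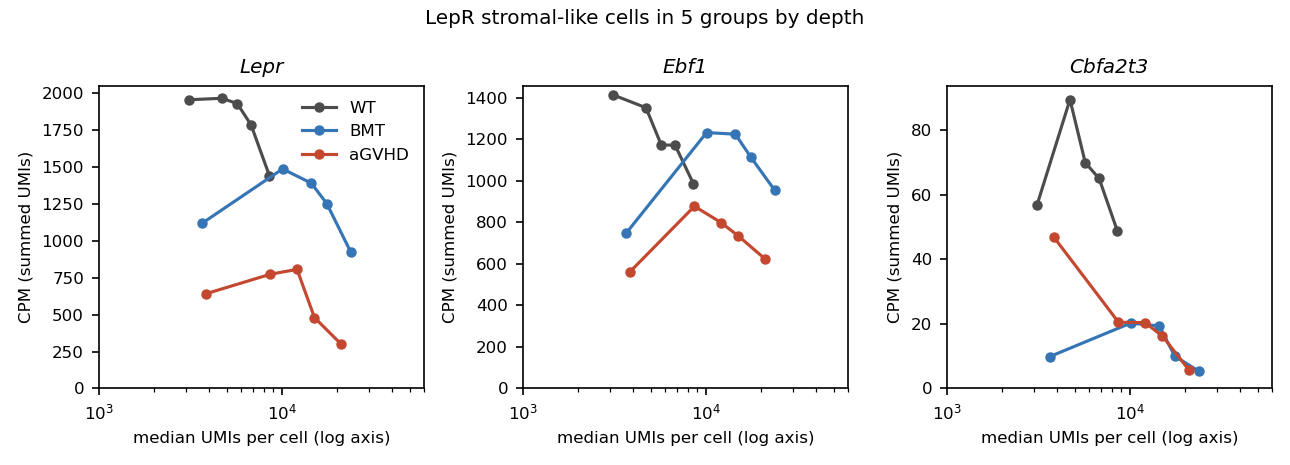
LepR stromal-like cells of each library split into 5 groups by depth; horizontal axis, median UMIs per cell of the group on a log axis; vertical axis, CPM of Lepr, Ebf1 and Cbfa2t3. Lepr falls to its lowest level in the deepest group of every library, the aGVHD line lies below the other lines throughout for Lepr, and the WT line lies highest for Cbfa2t3.

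Lepr was also missing from more cells. No Lepr UMI was found in 16 of 957 WT cells (1.67%), 33 of 560 BMT cells (5.89%) and 61 of 392 aGVHD cells (15.6%). The cells without one were shallower in BMT, with a median of 2903 UMIs against 14889 in cells with one, and in aGVHD, with 5718 against 12490. After every cell was thinned to 2000 UMIs, which left out 41, 18 and 11 shallower cells, a Lepr UMI was expected in 93.2% of WT, 80.2% of BMT and 55.2% of aGVHD cells, against 98.3%, 94.1% and 84.4% unthinned. In neutrophil-like cells, which should lack the gene, the thinned shares were 0.461%, 0.219% and 0.2003%, and the unthinned shares 1.22%, 0.861% and 0.472% at medians of 5884, 4314 and 7068 UMIs.

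Outside its own class Lepr was low. Fibroblast-like cells held 47.4 CPM in WT, 86.9 in BMT and 72.2 in aGVHD, and only the aGVHD value was above the empty droplets of its library, 1.70 times. Free RNA was estimated at 0.279%, 0.307% and 0.707% of a median fibroblast-like cell's UMIs. A Lepr UMI was found in 19.9%, 29.4% and 20.9% of these cells. Endothelial-like cells held 115.3 CPM in WT, close to the empty droplets at 108.8 CPM, 30.7 CPM in BMT and 9.98 CPM in aGVHD. Their shares with a Lepr UMI, 25.1%, 9.87% and 3.43%, were above those of neutrophil-like cells in each library. The endothelial-like class did not have the same makeup in each library: Ccl21a, a chemokine gene of lymphatic endothelium, led it in WT and Gpihbp1, a capillary gene, in aGVHD. Its part in the Lepr values was not tested. In WT the order from the highest level was LepR stromal-like, endothelial-like and fibroblast-like, with separate intervals, followed by osteolineage-like (13.7 CPM) and mural-like (9.84 CPM), whose intervals overlapped. In BMT and aGVHD fibroblast-like cells took the second place, with intervals separate from the neighbours in the order.

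Ebf3, the early B cell factor tied to reticular cells, had a pattern close to that of Lepr. Its level in LepR stromal-like cells was 615.7 CPM in WT (595.6 to 636.4), 459.9 CPM in BMT (445.1 to 475.1) and 244.9 CPM in aGVHD (231.1 to 259.2), against 47.5, 118.7 and 30.9 CPM in empty droplets. The intervals did not overlap. Ebf3 was 1.34-fold lower in BMT than in WT (ratio 0.747, 0.713 to 0.783), under the size needed for a call, and 1.88-fold lower in aGVHD than in BMT (ratio 0.532, 0.498 to 0.569). The class held 75.2%, 86.8% and 80.2% of the Ebf3 UMIs in cells. The next class was endothelial-like in all 3 libraries, at 52.5, 57.4 and 39.2 CPM, that is 1.10, 0.484 and 1.27 times the empty droplets. The intervals of the endothelial-like and mural-like levels of Ebf3 overlapped in WT (mural-like 43.7 CPM) and not in BMT (33.8 CPM). In aGVHD the endothelial-like, fibroblast-like (33.7 CPM) and mural-like (33.1 CPM) levels overlapped. At 2000 UMIs per cell, Ebf3 was detected in 67.0% of WT, 52.1% of BMT and 36.1% of aGVHD cells of the reticular class, against 90.6%, 85.2% and 75.8% unthinned.

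Ebf1 was far less restricted than its paralog. Its highest level was in B lineage-like cells, at 2636 CPM in WT (2549 to 2724) and 3906 CPM in BMT (3787 to 4027), while the aGVHD library held 7 such cells and gives no level. The 1.48-fold higher level in BMT was just under the size needed for a call. In LepR stromal-like cells Ebf1 stood at 1163 CPM in WT (1135 to 1191), 1076 CPM in BMT (1053 to 1099) and 715.6 CPM in aGVHD (692.0 to 739.8), with empty droplets at 211.9, 352.5 and 77.2 CPM. It was 1.08-fold lower in BMT than in WT (ratio 0.925, 0.896 to 0.956) and 1.504-fold lower in aGVHD than in BMT (ratio 0.665, 0.639 to 0.692). The last value sat at the limit of the rule, and the call held in 7 of 15 alternative settings, over which the ratio ran from 0.649 to 0.734. In cells of 5000 to 15000 UMIs the BMT level was 1.08 times that of WT, so the direction for Ebf1 between BMT and WT turned with the depth range.

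The stromal classes other than chondrocyte-like and osteolineage-like cells carried Ebf1 at high levels, and their order changed between libraries. In WT the order was LepR stromal-like (1163 CPM), mural-like (876.7 CPM) and fibroblast-like (656.2 CPM), with separate intervals. In BMT the intervals of mural-like (780.4 CPM) and fibroblast-like (693.7 CPM) cells overlapped. In aGVHD fibroblast-like cells were highest (842.5 CPM, 801.7 to 884.8), and LepR stromal-like and mural-like cells (715.6 and 712.3 CPM) did not differ beyond their intervals. In fibroblast-like cells the aGVHD level was 1.21 times the BMT level (1.14 to 1.29), a difference not called and opposite in direction to that in LepR stromal-like cells; the difference between the classes was not tested. Endothelial-like cells held 425.8, 320.3 and 188.4 CPM. The share of the Ebf1 UMIs in cells that lay in the LepR stromal-like class was 23.1% in WT, 43.5% in BMT and 50.9% in aGVHD. That class held 9.06%, 21.9% and 9.75% of all UMIs in cells. The Ebf1 shares also depend on how many cells of other classes with Ebf1 a library held. Fibroblast-like cells numbered 1835, 309 and 325, and B lineage-like cells 213, 211 and 7. Neutrophil-like cells held 14.7, 19.97 and 2.02 CPM.

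Foxc1, the forkhead gene of reticular and skeletal cells, was the member that differed least between BMT and WT in LepR stromal-like cells under the main settings. In LepR stromal-like cells it stood at 378.9 CPM in WT (363.1 to 395.2), 385.9 CPM in BMT (372.3 to 399.8) and 271.3 CPM in aGVHD (256.8 to 286.4). The WT and BMT intervals overlapped and the aGVHD interval lay below both. The ratio of BMT to WT was 1.02 (0.964 to 1.08), and Foxc1 was 1.42-fold lower in aGVHD than in BMT (ratio 0.703, 0.659 to 0.750), a difference that was not called. Empty droplets held 78.1, 90.0 and 34.6 CPM. Over the alternatives the BMT to WT ratio of Foxc1 lay on both sides of 1, from 0.924 to 1.20. The highest came from cells of 5000 to 15000 UMIs (1.11 to 1.30), where Snai2 (0.963) and Ebf1 (1.08) differed less. With likely doublets kept, Ebf1 (0.9997) also differed less than Foxc1 (1.09). At 2000 UMIs per cell Foxc1 was detected in 50.2%, 47.7% and 37.7% of cells, against 80.6%, 84.8% and 77.3% unthinned.

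Chondrocyte-like cells had the second highest Foxc1 level in WT. In WT their 526 cells held 222.5 CPM (212.5 to 232.8), 2.85 times the empty droplets, and 84.4% of them had a Foxc1 UMI at a median of 15072 UMIs per cell. The BMT and aGVHD libraries held only 34 and 36 such cells, at 206.0 CPM (176.2 to 239.4) and 302.8 CPM (238.9 to 378.4). Mural-like cells came next with 161.8, 158.7 and 118.0 CPM, and the ratio of BMT to WT there was 0.981 (0.796 to 1.20). Fibroblast-like cells, which held 107.6 CPM in WT, numbered 1835 in WT, 309 in BMT and 325 in aGVHD. Their summed Foxc1 UMIs were 1857, 255 and 148. The LepR stromal-like share of the Foxc1 UMIs in cells was 28.2% in WT, 72.6% in BMT and 69.8% in aGVHD. This share also depends on the cell numbers of the other classes.

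Snai2 had the lowest ratio of the 6 genes between aGVHD and BMT in LepR stromal-like cells, but its interval overlapped that of Lepr (0.426 to 0.465). After thinning to 2000 UMIs per cell the order turned, at 0.478 for Lepr and 0.486 for Snai2. The Snai2 level in LepR stromal-like cells was 257.4 CPM in WT (244.4 to 270.9), 218.5 CPM in BMT (208.3 to 229.1) and 85.8 CPM in aGVHD (77.7 to 94.4), with empty droplets at 23.0, 36.2 and 8.72 CPM. The 3 intervals were separate, with the aGVHD level far below the others. Snai2 was 1.18-fold lower in BMT than in WT (ratio 0.849, 0.792 to 0.911) and 2.55-fold lower in aGVHD than in BMT (ratio 0.392, 0.352 to 0.437). At 2000 UMIs per cell it was detected in 35.4%, 30.8% and 15.7% of cells, against 62.4%, 74.3% and 48.7% unthinned, so the thinned and unthinned shares order WT and BMT differently. In WT the second class was chondrocyte-like at 67.1 CPM, followed by fibroblast-like and osteolineage-like cells, both at 36.8 CPM with overlapping intervals. From BMT to aGVHD Snai2 was also lower in fibroblast-like cells (27.6 and 12.1 CPM, 2.27-fold, 1.44 to 3.73). Endothelial-like cells likewise held less (26.1 and 10.7 CPM, 2.44-fold, 1.71 to 3.53). In mural-like cells the ratio was 0.569 (0.160 to 1.67). None of these 3 classes met the conditions for a test. No Snai2 UMI was found in any neutrophil-like cell of the 3 libraries, where 3 UMIs would have given 4.40, 0.788 and 0.605 CPM.

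Cbfa2t3 followed a different course. In LepR stromal-like cells it stood at 63.8 CPM in WT (57.4 to 70.7), 11.6 CPM in BMT (9.37 to 14.3) and 15.7 CPM in aGVHD (12.4 to 19.7), from 366, 92 and 76 UMIs. The WT level was 5.56 times the empty droplets, whereas the BMT and aGVHD levels were 0.398 and 0.513 times those of their libraries. The aGVHD level varied with depth. It was 46.8 CPM in the shallowest of 5 depth groups, above the empty droplets at 30.6 CPM, and 5.71 CPM in the deepest. The same groups held 56.9 and 48.8 CPM in WT, and 9.88 and 5.32 CPM in BMT. These values carry no intervals. Cbfa2t3 was 5.49-fold lower in BMT than in WT (4.35 to 6.97), and the call held in all 15 alternatives, at 3.44-fold to 7.46-fold lower. The smallest of these came from cells of 5000 to 15000 UMIs, where the levels were 64.3 CPM in WT, 18.7 in BMT and 20.5 in aGVHD. The ratio of aGVHD to BMT was 1.35 (0.983 to 1.85), and its interval excluded 1 under 4 of 15 alternatives: doublets kept (1.42), TMM (1.48), median-of-ratios scaling (1.49) and the mean of the cells' own CPM (1.62). It was 2.28 after thinning (0.971 to 5.61). With both levels under the empty droplets, the difference did not meet the conditions for a call. At 2000 UMIs per cell, 11.3% of WT, 2.27% of BMT and 3.49% of aGVHD cells had a Cbfa2t3 UMI, against 26.4%, 10.7% and 11.0% unthinned.

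Cbfa2t3 did not fall in all classes. Endothelial-like cells, which held the highest Cbfa2t3 level in WT and aGVHD, stood at 137.4 CPM in WT (122.7 to 153.4), 146.0 in BMT (135.1 to 157.5) and 138.5 in aGVHD (127.4 to 150.4), and all 3 intervals overlapped. The ratio of BMT to WT was 1.06 (0.928 to 1.22) and that of aGVHD to BMT 0.949 (0.847 to 1.06). In B lineage-like cells Cbfa2t3 was higher in BMT than in WT, 191.0 against 74.8 CPM, a 2.55-fold difference (1.999 to 3.28) that was called; 28.4% of genes were called higher there and 15.8% lower. Mural-like cells held 45.2 CPM in WT, 18.2 in BMT and 47.6 in aGVHD. The 2.48-fold lower BMT level there (1.42 to 4.67) was called, on 14 UMIs, where 11.7% of genes were called lower and 14.1% higher. Osteolineage-like cells held 17.0 CPM in WT and 6.95 in BMT, 2.45-fold lower (1.51 to 4.07). Fibroblast-like cells held 4.81 and 8.69 CPM, a ratio of 1.81 (1.18 to 2.71). Neither of these 2 classes met the conditions for a test. In BMT megakaryocyte-like cells held 62.3 CPM and in aGVHD 71.4 CPM, and erythroid-like cells held 6.76, 45.3 and 16.2 CPM. The share of the Cbfa2t3 UMIs in cells that lay in the LepR stromal-like class was 23.8% in WT, 6.30% in BMT and 3.27% in aGVHD. That class held 9.06%, 21.9% and 9.75% of all UMIs in cells. Differences between classes in these ratios were not tested, as each rests on 1 library per group.

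**Figure D3:**
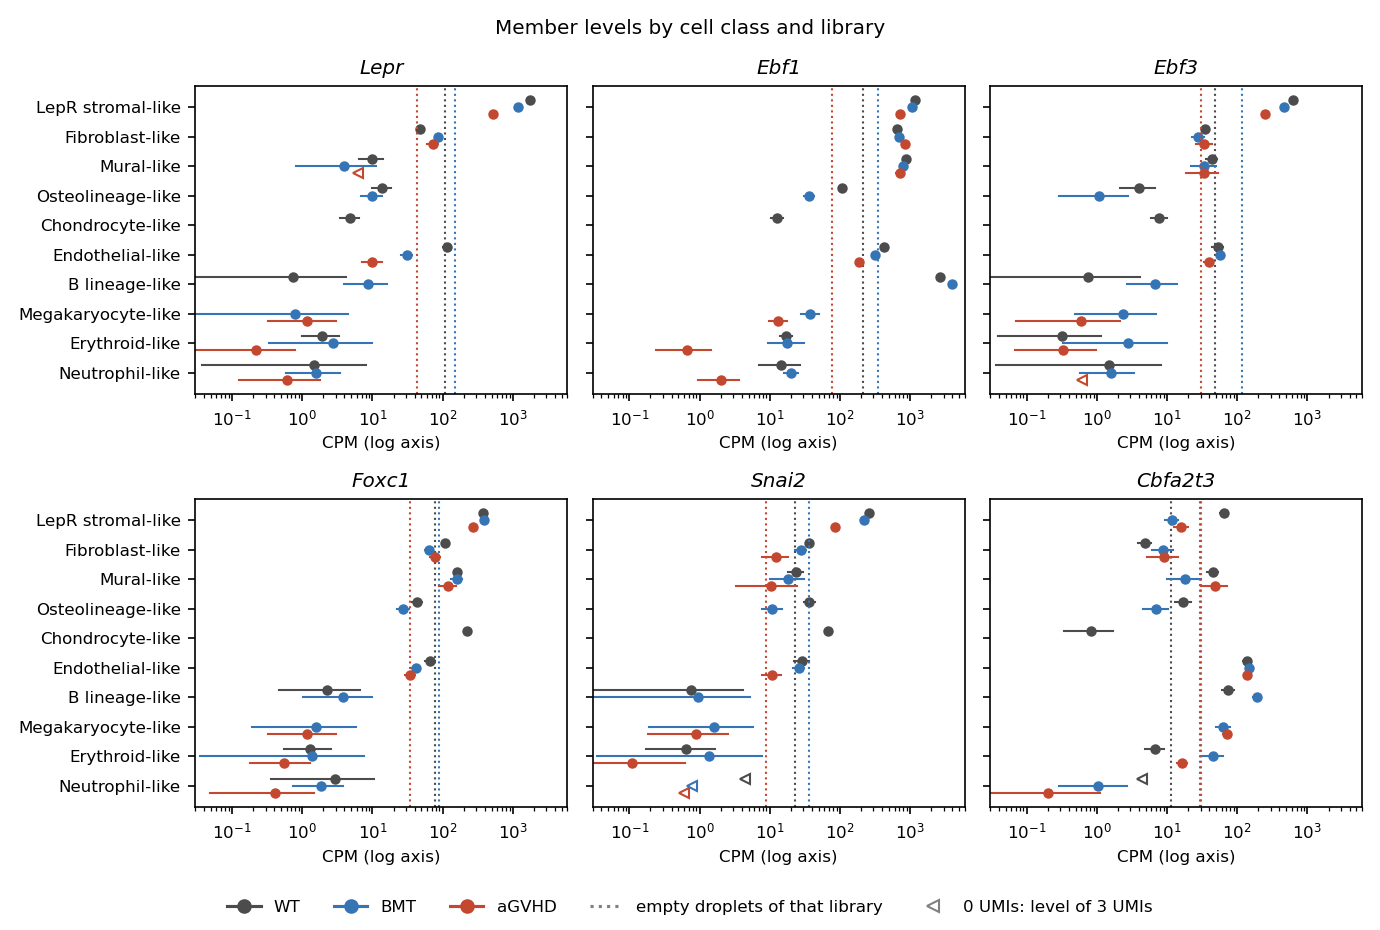
Level of each gene (horizontal axis, CPM on a log axis) in 10 cell classes (vertical axis) in the WT, BMT and aGVHD libraries, for sums of at least 50 cells; lines are exact Poisson 95% intervals, dotted lines the empty-droplet levels and open triangles sums of 0 UMIs drawn at the level of 3 UMIs. Lepr, Ebf3 and Snai2 peak in LepR stromal-like cells, Ebf1 in B lineage-like cells of WT and BMT, and Cbfa2t3 is at 137.4 to 146.0 CPM in endothelial-like cells of all 3 libraries.

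The ratios of all 6 genes in the reticular class are set side by side in the plot of ratios. The 2 comparisons share the BMT library. For aGVHD over BMT, 5 of the 6 ratios lay below 1 under each of the 15 alternatives, and Cbfa2t3 lay above 1. For BMT over WT the ratios of Lepr, Ebf3, Snai2 and Cbfa2t3 lay below 1 under each of them, and those of Ebf1 and Foxc1 lay on both sides. Scaling by TMM moved log2 ratios by -0.12 for BMT over WT and 0.13 for aGVHD over BMT. With that scaling Lepr was 1.60-fold lower in BMT than in WT, which is past the size of a call.

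**Figure D4:**
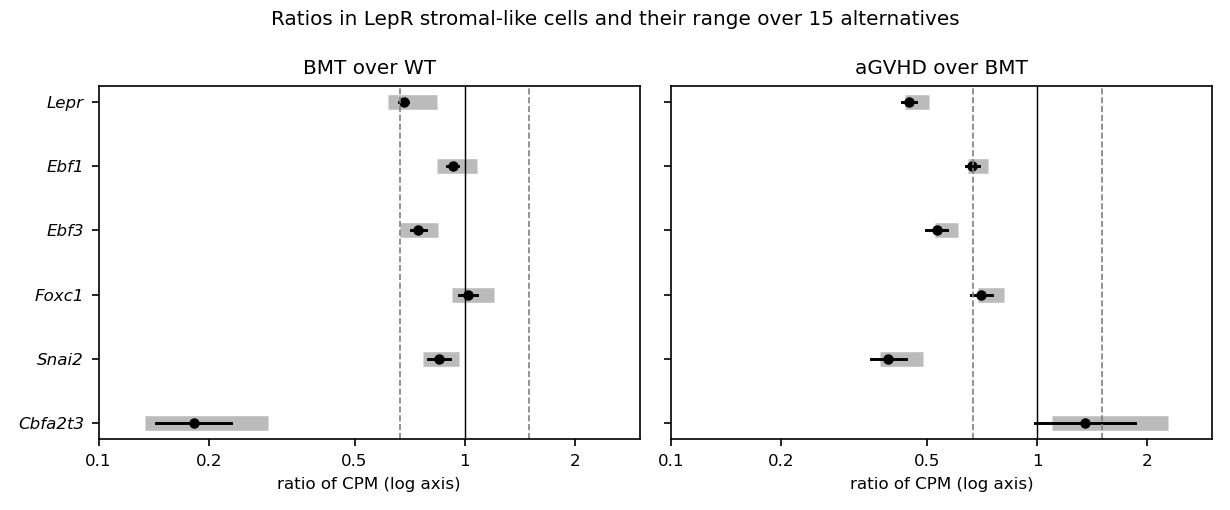
Ratio of CPM in LepR stromal-like cells (horizontal axis, log axis) for BMT over WT and aGVHD over BMT; points are the ratios, black lines exact 95% intervals (counting error only), grey bars the range over 15 alternatives and dashed lines the 1.5-fold limits. Cbfa2t3 lies at 0.182 for BMT over WT, and Lepr at 0.445 and Snai2 at 0.392 lie farthest below 1 for aGVHD over BMT.

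At a fixed 2000 UMIs per cell, fewer of the 6 genes were detected together in BMT and aGVHD than in WT. Unthinned, the median cell did not hold fewer UMIs in BMT than in WT. It held 6 Ebf1 UMIs in WT, 15 in BMT and 8 in aGVHD, and 3, 5 and 2 of Ebf3. For Foxc1 the medians were 2, 4 and 3, for Snai2 1, 2 and 0, and for Cbfa2t3 0 in each library. With each LepR stromal-like cell thinned to 2000 UMIs, the median cell had a UMI of 4 of the 6 genes in WT, 3 in BMT and 2 in aGVHD. Cells with none of the 6 made up 0.328% in WT (3 of 916), 2.58% in BMT (14 of 542) and 6.04% in aGVHD (23 of 381). Cells with at most 1 of them were most frequent in aGVHD, where 94 of 381 cells had a UMI of 1 gene, against 41 of 542 in BMT and 33 of 916 in WT.

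Thinned cells with and without a Lepr UMI differed in some of the other genes, although all were gated on the same 8 markers. In BMT a Snai2 UMI was found in 32.3% of 443 Lepr-positive cells (27.9 to 36.9) and 16.2% of 99 Lepr-negative cells (9.53 to 24.9), and in aGVHD in 20.9% of 211 (15.6 to 27.0) and 10.6% of 170 (6.40 to 16.2), where the intervals overlapped. Ebf3 was found in 55.1% of Lepr-positive and 40.4% of Lepr-negative BMT cells, with intervals of 50.3 to 59.8 and 30.7 to 50.7 that overlapped. Foxc1 was found in 46.0% and 30.6% of the aGVHD cells, with separate intervals of 39.1 to 52.9 and 23.8 to 38.1. Cbfa2t3 was found in 13 of 211 Lepr-positive aGVHD cells (6.16%, 3.32 to 10.3) and 1 of 170 Lepr-negative cells (0.588%, 0.0149 to 3.23), with separate intervals at few cells. In WT, where 63 of 916 thinned cells lacked Lepr, the intervals overlapped for all 5 genes. For Ebf1 the intervals overlapped in every library: it was found in 85.1% and 84.1% of WT, 81.7% and 78.8% of BMT, and 72.5% and 74.1% of aGVHD cells with and without Lepr. These cells come from 1 library per group, so the intervals describe those cells only.

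Genes of leptin signalling were read from a list of 16 genes in LepR stromal-like cells. Of the 7 that could be tested between BMT and WT, none was called higher and 3 were called lower, where 8.09% of all testable genes were lower and 20.6% higher, and the median log2 ratio over the 15 genes with enough UMIs was -0.04 against 0.12 over all genes. Stat5a, a signal transducer of cytokine receptors, was 2.80-fold lower (154.8 CPM in WT, 55.2 in BMT), its paralog Stat5b 1.52-fold lower (94.8 and 62.2 CPM), and Socs3, the feedback inhibitor of the leptin receptor, 1.61-fold lower (1003 and 625.0 CPM). Socs3 stood at 374.0 CPM in aGVHD, but with BMT empty droplets at 563.5 CPM it could not be tested between aGVHD and BMT. There 1 of 4 testable genes was called lower, Stat5a at 2.09-fold (26.5 CPM in aGVHD), and none higher, near the 25.6% lower and 10.2% higher over all genes, with a median of -0.11 against -0.13 over all genes. Leprot, which encodes a small membrane protein that limits the receptor's surface level and lies next to Lepr on chromosome 4, stood at 80.5, 98.5 and 93.0 CPM and did not reach the empty-droplet condition.

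Other mesenchymal transcription factor genes were read from a list of 26, of which 25 were in the matrices. Between BMT and WT, 18 could be tested: 2 were called higher, the adipocyte regulators Pparg (2.06-fold; 47.1 CPM in WT, 97.1 in BMT) and Cebpa (1.58-fold; 198.3 and 314.1 CPM), and none lower. That count of higher genes is under the 20.6% over all genes. The median log2 ratio was -0.08 over 24 genes. Between aGVHD and BMT, 6 of 18 were called lower and 1 higher, near the 25.6% lower and 10.2% higher over all genes, with a median of -0.34 against -0.13. Those called lower included Prrx1, a limb and skeletal mesenchyme factor (1.86-fold; 288.2 CPM in BMT, 154.8 in aGVHD), Ebf2, the third early B cell factor (1.82-fold; 50.05 and 27.5 CPM), Runx2, the osteoblast determinant (1.73-fold; 155.6 and 89.7 CPM), Maf (1.64-fold) and Zeb2 (1.61-fold). Snai1, the paralog of Snai2, was the gene called higher, at 31.6 CPM in BMT and 69.6 CPM in aGVHD (2.20-fold, 1.87 to 2.61), and its WT level was 63.3 CPM. The BMT level of Snai1 lay just under its empty droplets (33.6 CPM), and the aGVHD level was above its own (9.96 CPM). Runx1, abundant at 618.7, 579.9 and 390.6 CPM, was not called in either comparison. Of 13 partners and paralogs of Cbfa2t3, 2 could be tested in each comparison and none was called, with medians of 0.13 and -0.09.

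Likeness of pattern was measured as Pearson's r of log2(CPM + 1) over 29 sums of class and library with at least 50 cells, among 8618 genes with a mean of at least 10 CPM. Sums of 1 library share its depth and free RNA, and r is given as a description only. The genes most like Lepr were Cxcl12 (0.942), which is also a gate marker of the class, Fbln5 (0.909) and Vegfc (0.901). Those most like Ebf3 were Fbln5 (0.937), Plpp3 (0.935) and the gate marker Gas6 (0.930), and those most like Ebf1 were Tcf7l2 (0.913), Akap12 (0.905) and Zfp36l1 (0.892). Foxc1 was closest to Emp2 (0.971), Ift43 (0.953) and Pianp (0.950), and Snai2 to Dlg5 (0.955), Cyr61 (0.944) and Tle2 (0.940). Cbfa2t3 had lower values, with Gstt2 (0.824), Rxrb (0.814) and Fam65a (0.812) on top. Among the 6 genes themselves, Foxc1 and Snai2 were the most alike pair (0.930), Lepr was closest to Ebf3 (0.860) and Snai2 (0.855), and Cbfa2t3 was least like Foxc1 (0.059).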

How the data were processed

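Per the file headers, the deposited matrices were written by Cell Ranger 3.1.0, and the submitters' processing notes name the mm10 build and Seurat. The deposited values are raw counts of UMIs per gene and barcode, empty droplets included. Cells were barcodes of at least 1000 UMIs and 500 genes with under 10% mitochondrial UMIs. The highest Scrublet scores (scanpy 1.11.5), at 0.8% per 1000 cells, were removed as likely doublets: 407, 105 and 248 in WT, BMT and aGVHD. Scrublet's own threshold marked 187, 28 and 78. A marker counted where its share of a cell's UMIs reached that in empty droplets; a class needed at least 3 markers and 2 more than the next. Ungated cells were 17.9%, 14.5% and 24.3%. Levels carry exact Poisson intervals, shares Clopper-Pearson intervals and ratios exact conditional intervals (scipy 1.17.1). TMM factors came from edgeR 4.0.16. The ratio and call were tested on simulated data. No test across replicates exists with 1 library per group.

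The 6 genes, the lists and the markers were chosen with earlier results of these data known. Named beside the 6 genes are the 3 genes most like each, up to 4 genes per list and direction past the call rule, and Leprot, Ebf2, Socs3, Runx1 and Runx2. Alternatives covered cell calling, mitochondrial limit, doublets, gate, classes by profile likelihood, free RNA, scaling, weight of cells, thinning and the call limits. Of 55 list genes 54, and of 128 markers 127, were in the gene list; the other two were not analysed here.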

Additional observations from a re-analysis of the deposited data

How the results depend on the processing

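No paired analysis was possible because each group has 1 library. The ratio of Lepr in BMT over WT, 0.680, was 0.761 with likely doublets kept, 0.658 with classes by whole-profile likelihood, 0.627 with TMM scaling, 0.618 with median-of-ratios scaling and 0.656 as the mean of the cells' own CPM. With alternatives chosen after seeing the data it was 0.705 without the deepest of 5 depth groups and 0.839 in cells of 5000 to 15000 UMIs. The ratio in aGVHD over BMT, 0.445, was 0.489 with TMM, 0.492 with median-of-ratios, 0.4999 as the mean of the cells' own CPM, 0.478 after thinning, 0.495 without the deepest of 5 depth groups and 0.506 in cells of 5000 to 15000 UMIs. No called ratio of the 6 genes in LepR stromal-like cells changed direction in these alternatives, which were not run for other classes or for the listed genes. Between BMT and WT, 2 genes in place of 1 were called under 5 alternatives: Lepr and Cbfa2t3 under profile likelihood, both scalings and the mean of the cells' own CPM, and Ebf3 and Cbfa2t3 after thinning. Between aGVHD and BMT, 2 genes (Lepr and Snai2) in place of 4 were called at a 2-fold limit, and Ebf1 was lost under 8 other settings. The part of class depth, which differs between the libraries, cannot be told apart from that of the groups.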
